A study of Mus musculus with 12 samples.

Results

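Ribosome biogenesis factors are the nucleolar proteins that make ribosomes. A set of 35 of them was followed in RNA-Seq of U2OS cells, a human osteosarcoma line, as 35 of the 58735 genes in the table, each found by the full name that the table gives. RNA polymerase I copies the ribosomal DNA into a long precursor. Box C/D and box H/ACA small nucleolar ribonucleoproteins (snoRNPs) then methylate and pseudouridylate it, and assembly factors cut and fold it into the small and the large subunit before export to the cytoplasm. Proliferating tumor cells are known for large, active nucleoli, and SRSF1, the splicing factor depleted in this study, has roles in nuclear export and translation besides splicing.

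The study compared 12 libraries in 4 groups of 3: blank U2OS cells with no transfection named, U2OS cells with the siRNA siSRSF1-2, U2OS cells with the siRNA siSRSF1-3, and U2OS cells in which LINC01134, a long non-coding RNA, was overexpressed (OE-LINC01134). The samples hold no library with a control siRNA or an empty vector, so transfection and target cannot be told apart, and nothing in the labels ties replicates to separate cultures, so p-values measure the spread between libraries, which may be technical. The written methods name fewer biological replicates per condition than the libraries analysed here, so n counts libraries. The labels name mouse as the organism, but every identifier is a human Ensembl gene. VIM, COL1A1 and SPARC were expressed in all 12 libraries while the leukocyte marker PTPRC stayed at or below 0.0559 FPKM, and COL1A2, a collagen gene of mesenchymal cells, was near 0 (at most 0.0131 FPKM).

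Reads on genes ran from 26237763 to 32954539 a library, and a member that was tested had between 276 and 41545 reads in a library. The unit was FPKM, which scales fragments to gene length and to a library size. That size was not the own read total, but 0.712 to 1.085 times it. Rescaling by median-of-ratios factors left the median of the factors almost unchanged (0.130053 and 0.130051 with siSRSF1-3 against blank cells), so the deposited values were already near that scale. Scaling to own read totals and to the same sum of FPKM moved this median to -0.13 and -0.31. Groups were compared by limma after taking log2(FPKM + 0.1), and 17538 genes whose mean reached 0.5 FPKM entered. To pass the threshold a gene needed a p under 0.05 after Benjamini-Hochberg adjustment and a log2 fold change beyond 1 in either direction. The smallest p that an exact permutation of 3 against 3 libraries allows is 0.1. Of the 35 factors, 34 were tested. NOP2, an rRNA methyltransferase of the large subunit, lay between 0.151 and 0.539 FPKM on 18 to 70 reads and did not reach the filter. The table places 99.81% of its span within a second coding gene on the same strand, ENSG00000285238, so reads of the pair cannot be separated, and its values are not read further.

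Some libraries stood apart from their group. Blank replicate 1 differed from the other blank libraries by a chi-square of 68.6 and 71.3 per gene, against 2.81 between blank replicates 2 and 3, where sampling noise alone gives about 1. OE-LINC01134 replicate 2 differed by 67.1 and 69.3 from the other OE-LINC01134 libraries, which differed by 2.14. The 3 siSRSF1-2 libraries lay within 2.63 to 3.24 of each other, and the 3 siSRSF1-3 libraries differed by 131 to 452. Across groups, blank replicate 1 was nearer to OE-LINC01134 replicate 2 (median absolute log2 difference over genes 0.260) than to blank replicate 2 (0.339), and siSRSF1-3 replicate 3 was nearer to siSRSF1-2 replicate 1 (0.243) than to siSRSF1-3 replicate 2 (0.456). VIM followed the same lines, with 68.7, 248 and 69.4 FPKM in the OE-LINC01134 libraries against 244, 181 and 195 in blank cells. The factors themselves showed the split in blank cells: 32 of the 34 were higher in replicate 1 than in both other blank libraries, by a median ratio of 1.33 to the mean of the other two, where the median ratio over all genes tested was 1.02 and 47.3% of genes were higher. The medians of the factors against blank cells, and some single genes, are therefore also given with that library left out. For most single genes the fold change is given with it only.

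SRSF1 (ENSG00000136450), the target of both siRNAs, read 35.9, 19.8 and 20.5 FPKM in blank cells, 7.09, 7.46 and 7.41 with siSRSF1-2 and 3.33, 6.81 and 7.90 with siSRSF1-3. Every siRNA library lay below every blank library. The log2 fold change was -1.72 with siSRSF1-2 (SE 0.23, adjusted p = 0.00500 by limma) and -2.09 with siSRSF1-3 (SE 0.38, adjusted p = 0.0518 by limma), which missed the threshold and passed it with voom, in 1 fit over all 4 groups, with a pseudocount of 1 and without siSRSF1-3 replicate 3 (adjusted p from 0.00370 to 0.0463). The table places 97.49% of the SRSF1 span within another coding gene of the same strand, so part of its reads may belong there. LINC01134 read 891, 1279 and 878 FPKM in the OE-LINC01134 libraries and at most 1.11 in any other.

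In blank cells the 34 factors ranged over 94.1-fold in mean FPKM, from UTP20 with 3.42 ± 1.42 to NPM1 with 322 ± 60.9 (SD, n = 3). Their median was 29.1 FPKM against 3.91 for all genes tested, and 8 of them exceeded 50. NPM1, the abundant nucleolar chaperone nucleophosmin, read 392, 279.6 and 295 FPKM in blank cells. Its order of libraries was that of most factors, with replicate 1 on top. NOP10, a small subunit of the box H/ACA snoRNP, came next with 199, 200.3 and 203 FPKM, the tightest of the abundant factors. NCL, the nucleolar RNA-binding protein nucleolin, was at 150.1, 92.9 and 97.3 FPKM, and the box C/D methyltransferase FBL at 112, 88.1 and 89.7 FPKM, so the ranges of NCL and FBL overlapped. The table lists 48 pseudogenes named after NPM1, the highest at a mean of 22.2 FPKM, and reads may be shared with them.

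The factors differed in position, hosted genes and length. They lie on 17 chromosomes, and 6 of them (NOP56, NOP58, NCL, DKC1, WDR43 and GNL3) hold 23 annotated snoRNA or scaRNA genes within their spans. Gene length ran from 554 bases for NOP10 to 13519 bases for POLR1A. Within-group spread differed strongly between groups: the median coefficient of variation over the factors was 17.5% in blank cells, 9.58% with OE-LINC01134, 2.19% with siSRSF1-2 and 23.2% with siSRSF1-3.

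**Figure D1:**
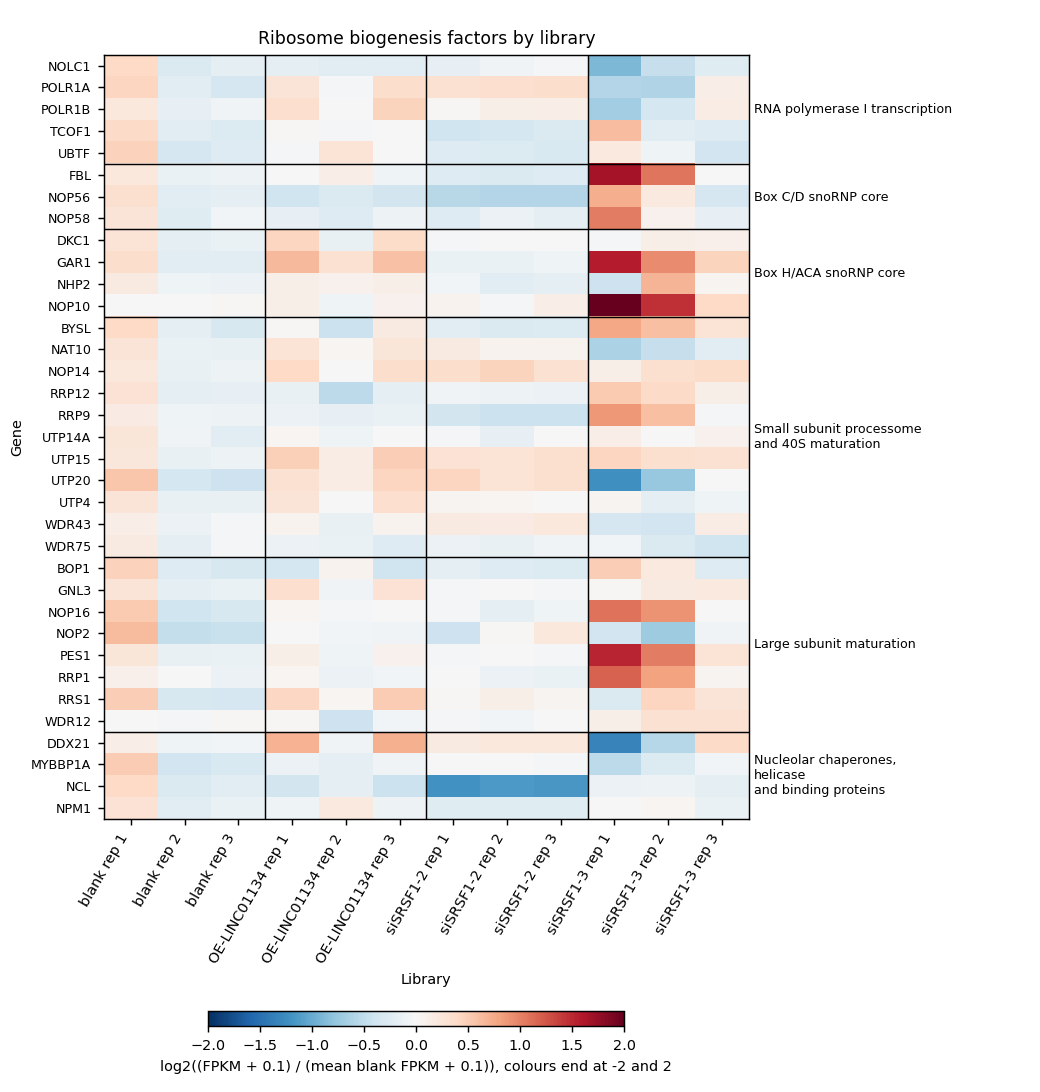
Log2 difference of FPKM + 0.1 from the mean of the blank libraries (colour) for the 35 factors (rows, grouped by role) in the 12 libraries (columns, by group and replicate). Strong colours sit in siSRSF1-3 replicates 1 and 2, where NOP10, FBL, GAR1 and PES1 were high and DDX21 and UTP20 low, and in the NCL row of the 3 siSRSF1-2 libraries.

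With siSRSF1-2, the factor that stood out was NCL. It read 49.1, 50.9 and 50.4 FPKM with siSRSF1-2, against 150.1, 92.9 and 97.3 in blank cells. All 3 siSRSF1-2 libraries were far below all 3 blank ones. The log2 fold change was -1.14 (SE 0.18, adjusted p = 0.00848 by limma), and NCL was the only one of the 34 factors past the threshold. Among all genes tested 2.22% were higher and 2.73% lower past it. The call rested on blank replicate 1 for its fold limit: without that library the log2 fold change was -0.92 (adjusted p = 4.85e-05), under the fold limit, and with the near-identical libraries of each group averaged to 1 it was -1.25 (adjusted p = 0.816), where the single siSRSF1-2 value was taken to vary like blank cells. Under the other alternatives run, its adjusted p ran up to 0.0439. NCL read 105, 105 and 101 FPKM with siSRSF1-3 and 88.4, 101 and 83.8 FPKM with OE-LINC01134, all above every siSRSF1-2 library as deposited. At the same sum of FPKM the log2 difference of siSRSF1-3 from siSRSF1-2 shrank from 1.04 to 0.47.

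Of the box C/D proteins, the scaffold NOP56 read 25.5, 25.03 and 24.96 FPKM with siSRSF1-2 and 47.1, 32.4 and 33.2 in blank cells. The groups did not overlap, and the log2 fold change of -0.56 (SE 0.15) passed the adjusted p alone (adjusted p = 0.0393 by limma). FBL, the methyltransferase of the same particle, read 81.0, 79.3 and 80.8 FPKM with a log2 fold change of -0.26 (SE 0.10, adjusted p = 0.113 by limma). Its libraries also lay below every blank library, though by less. RRP9, which binds the U3 snoRNA of the small subunit processome, read 33.8, 32.2 and 32.2 FPKM against 48.9, 41.1 and 40.4, a log2 fold change of -0.40 (SE 0.09, adjusted p = 0.0208 by limma). NCL, NOP56 and RRP9 were thus the 3 factors lower at an adjusted p under 0.05 without a fold limit, and 0 were higher, where 12.8% of all genes tested were lower and 14% higher. NOP56 and RRP9 lost this call in 1 fit over all 4 groups (adjusted p = 0.196 and 0.255 by limma) and with no filter on low values (adjusted p = 0.119 and 0.0573 by limma).

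None of the other factors passed either rule with siSRSF1-2. NPM1 lay at 272, 273 and 271 FPKM, below every blank library, with a log2 fold change of -0.23 (SE 0.13, adjusted p = 0.243 by limma). The RNA helicase DDX21 lay above every blank library at 79.4, 81.1 and 81.2 FPKM, with a log2 fold change of 0.20 (SE 0.07, adjusted p = 0.0795 by limma). Both nucleolar proteins thus lay outside the blank range, on opposite sides of it. POLR1A, the largest subunit of RNA polymerase I, read 10.7, 10.9 and 11.1 FPKM against 11.7, 7.45 and 6.88, and its log2 fold change was 0.37 (SE 0.20, adjusted p = 0.221 by limma). The high POLR1A value of blank replicate 1 made the groups overlap. NHP2 of the box H/ACA particle read 63.8, 56.9 and 58.6 FPKM against 74.6, 62.6 and 61.3 (log2 fold change -0.14, SE 0.09, adjusted p = 0.305 by limma). RRP1, a large subunit factor, read 11.1, 10.2 and 10.1 against 11.9, 11.04 and 10.2 (log2 fold change -0.08, SE 0.08, adjusted p = 0.505 by limma). For both genes the groups overlapped.

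Over the 34 factors, 4 were higher and 6 lower without overlap between siSRSF1-2 and blank libraries (11.8% and 17.6%), where 25.3% and 24.2% of all genes tested were. The higher ones were DDX21, NOP14, UTP15 and WDR43, the last 3 of them parts of the small subunit processome, and the lower ones NCL, NPM1, FBL, NOP56, RRP9 and TCOF1, the nucleolar phosphoprotein treacle. All 34 lay between -1.14 and 0.42, and their median log2 fold change was -0.045, beside 0.019 over all genes. Without blank replicate 1 it was 0.091, and rescaling FPKM to the same sum also turned its sign (0.086, all genes 0.15). Relative to all genes it was -0.064 as deposited and -0.061 after that rescaling. By role, the median was -0.26 for the 3 box C/D proteins, all of them lower, 0.050 for the 11 small subunit factors, -0.030 for the 7 large subunit factors and -0.047 for the 4 box H/ACA proteins. With FPKM at the same sum the large subunit and box H/ACA medians turned positive (0.10 and 0.085), and the box C/D median stayed negative (-0.13).

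**Figure D2:**
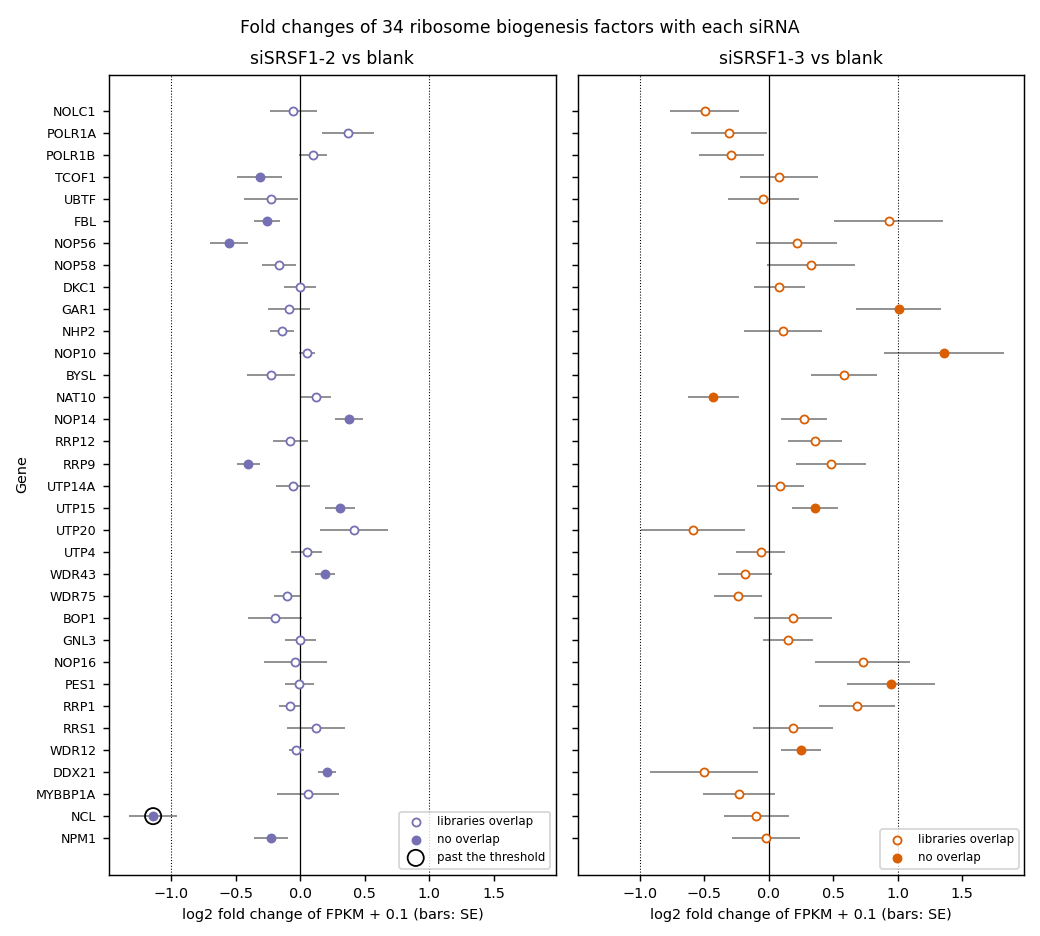
Log2 fold change of FPKM + 0.1 against blank cells (points, bars show the SE) for the 34 tested factors, with siSRSF1-2 on the left and siSRSF1-3 on the right. Filled points mark groups of libraries that do not overlap, and the ring marks NCL at -1.14, the only factor past the threshold. Bars are wider with siSRSF1-3.

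With siSRSF1-3 no factor passed the threshold in limma or with voom. At an unadjusted p under 0.05, 3 factors were higher and 0 lower, and NOP10 and GAR1, both box H/ACA proteins, also passed the fold limit. Of all genes tested, 15.2% were higher and 13.6% lower at that p, and 7.57% were higher with the fold limit, beside 8.82% and 0% of the factors at that p and 5.88% with the fold limit. Past the threshold, 0.331% of all genes tested were higher and 0.929% lower. Replicate 1 held 9 factors more than 1 log2 unit from the blank mean (7 higher, 2 lower), replicate 2 held 3, and replicate 3 held 0. The cytosolic ribosomal protein genes took 18.9%, 13.6% and 7.87% of the reads of replicates 1, 2 and 3, against 6.23% to 7.63% in the other libraries, and the library sizes implied by the deposited FPKM were 0.712 and 0.888 times the own read totals of replicates 1 and 2. The part of this in the values below was not tested.

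In the box H/ACA particle, which guides pseudouridylation, NOP10 read 939, 551 and 265 FPKM with siSRSF1-3. All 3 lay above the blank values of 199, 200.3 and 203, and the spread among them exceeded that of any other group. The log2 fold change was 1.36 (SE 0.47, adjusted p = 0.126 by limma). GAR1, another protein of the particle, read 87.6, 56.8 and 40.1 FPKM against 37.8, 25.5 and 25.4, also without overlap (log2 fold change 1.01, SE 0.33, adjusted p = 0.117 by limma). The replicates of GAR1 stood in the same order as those of NOP10. NHP2 did not follow, with 49.6, 106 and 68.7 FPKM around the blank values, and DKC1, the pseudouridine synthase itself, had a log2 fold change of 0.08 (SE 0.20, adjusted p = 0.798 by limma).

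FBL, the catalytic box C/D protein, read 307, 204 and 97.7 FPKM with siSRSF1-3 against 112, 88.1 and 89.7 (log2 fold change 0.93, SE 0.42, adjusted p = 0.191 by limma). Replicates 1 and 2 were above every blank library and replicate 3 was within them. NOP56 was at 62.5, 43.02 and 29.6 FPKM and NOP58, its partner scaffold, at 95.4, 49.5 and 41.7 FPKM, each overlapping the blank libraries, which reached 47.1 FPKM for NOP56 and 56.1 for NOP58.

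Of the large subunit factors, PES1, which with BOP1 and WDR12 forms the PeBoW complex, read 158, 111 and 65.9 FPKM against 64.6, 49.5 and 50.04 in blank cells. The groups did not overlap, and the log2 fold change was 0.95 (SE 0.34, adjusted p = 0.135 by limma). For its complex partners the log2 fold change was 0.19 for BOP1 (SE 0.30, adjusted p = 0.689 by limma) and 0.25 for WDR12 (SE 0.16, adjusted p = 0.310 by limma). RRP1 read 25.2, 19.5 and 11.4 FPKM against 11.9, 11.04 and 10.2 (log2 fold change 0.68, SE 0.30, adjusted p = 0.180 by limma). Replicate 3 of RRP1 fell within the blank values.

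The small subunit factors went both ways with siSRSF1-3. BYSL, needed for late 40S maturation, read 53.2, 47.4 and 37.6 FPKM against 41.3, 27.2 and 25.1 (log2 fold change 0.58, SE 0.26, adjusted p = 0.183 by limma), and RRP9 read 79.7, 65.9 and 42.4 FPKM (log2 fold change 0.48, SE 0.27, adjusted p = 0.260 by limma). For both, replicate 3 was the lowest and overlapped blank cells. UTP20, a long scaffold protein, read 1.40, 1.97 and 3.46 FPKM against 5.06, 2.67 and 2.54 (log2 fold change -0.59, SE 0.40, adjusted p = 0.339 by limma). NAT10, the RNA cytidine acetyltransferase, read 10.9, 12.4 and 14.5 against 20.3, 15.5 and 15.3 (log2 fold change -0.43, SE 0.20, adjusted p = 0.195 by limma). NAT10 was the only factor lower than blank cells in siSRSF1-3 without overlap.

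Among the RNA polymerase I factors, NOLC1, a chaperone of snoRNPs, read 19.5, 26.5 and 30.7 FPKM against 47.8, 29.6 and 31.6 (log2 fold change -0.50, SE 0.27, adjusted p = 0.247 by limma). POLR1A read 5.73, 5.72 and 9.57 against 11.7, 7.45 and 6.88 (log2 fold change -0.31, SE 0.30, adjusted p = 0.496 by limma). In both genes replicate 3 lay inside the blank range. DDX21, which acts in polymerase I transcription and rRNA processing, read 27.6, 47.03 and 91.8 FPKM against 76.4, 66.3 and 67.5, so that its siSRSF1-3 libraries fell on both sides of blank cells (log2 fold change -0.51, SE 0.42, adjusted p = 0.428 by limma).

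Over the 34 factors, 5 were higher and 1 lower without overlap (14.7% and 2.94%), where 19.2% and 18% of all genes tested were. The 5 were NOP10, GAR1, PES1, WDR12 and UTP15, a small subunit processome protein. All 34 lay between -0.59 and 1.36. The median log2 fold change was 0.13 beside -0.011 over all genes, with 21 factors higher and 13 lower. By role, as deposited, it was 0.56 for the box H/ACA proteins (4 of 4 higher), 0.33 for box C/D (3 of 3), 0.25 for large subunit factors (7 of 7), 0.090 for small subunit factors (6 of 11), -0.16 for the chaperone and helicase group (0 of 4) and -0.29 for the RNA polymerase I factors (1 of 5). Scaling to own read totals moved the median of all genes to -0.26 and that of the factors to -0.13, and the same sum of FPKM moved them to -0.44 and -0.31. Relative to all genes the median of the factors was 0.14 as deposited and 0.13 on both other scales, and the same number in each role group lay above the median of all genes, although on own read totals and at the same sum the large subunit median then read -0.011 and -0.19, the small subunit median -0.17 and -0.35 and the box C/D median 0.067 and -0.12.

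**Figure D3:**
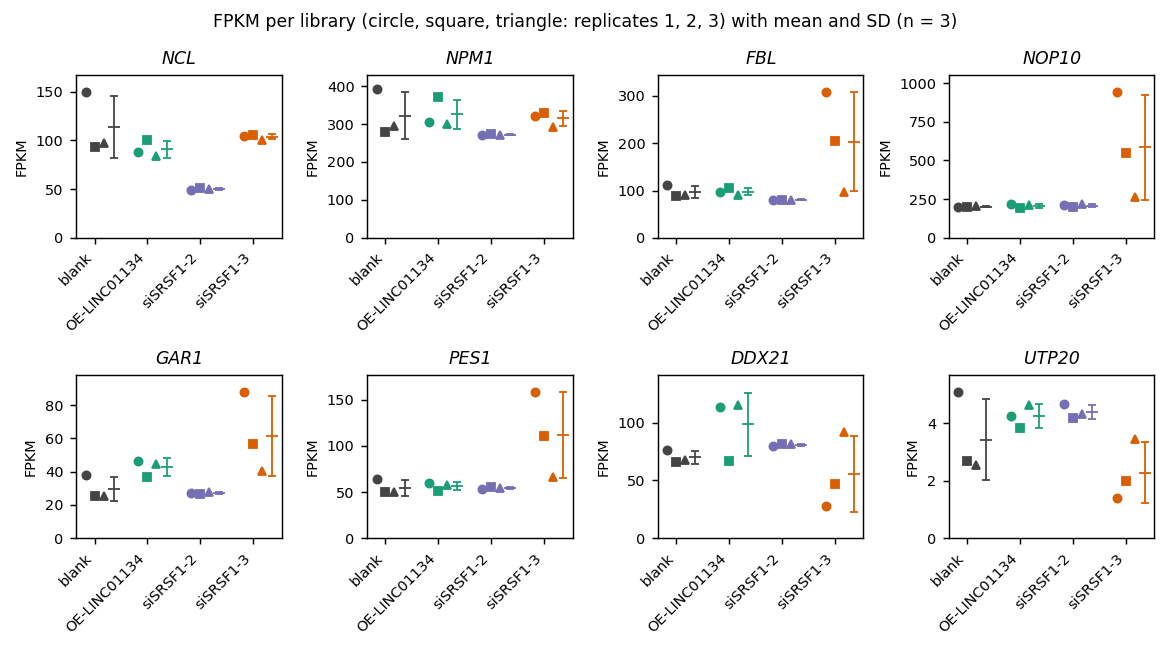
FPKM (vertical axes, from 0) of 8 factors by group, with circles, squares and triangles for replicates 1, 2 and 3 and a bar for the mean ± SD (n = 3). The siSRSF1-2 libraries of NCL lie together near 50.2, and with siSRSF1-3 replicate 1 is the highest for NOP10, FBL, GAR1 and PES1 and the lowest for DDX21 and UTP20.

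With siSRSF1-3, the number of factors past the threshold changed on leaving out replicate 3. Without it, 5 were higher past the threshold: NOP10 (log2 fold change 1.84, adjusted p = 0.0119), FBL (1.38, adjusted p = 0.0145), PES1 (1.29, adjusted p = 0.0145), GAR1 (1.28, adjusted p = 0.0222) and NOP16 (1.06, adjusted p = 0.0461), all by limma. Over all genes tested, 4184 then passed in place of 221, and 12.5% were higher past the threshold. In 1 fit over the 4 groups, NOP10 and GAR1 passed (adjusted p = 0.0197 and 0.0196 by limma), as did 7.1% of all genes in the higher direction. The 5 and 2 factors were 14.7% and 5.88% of the 34. The median log2 fold change of the factors without replicate 1 was 0.038, and without blank replicate 1 it was 0.27.

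The length of the genes moved with these differences. Across the 34 factors the log2 fold change with siSRSF1-3 and log2 gene length had r = -0.61 and rho = -0.53 (across genes of the same libraries, which are not independent), where over all 17538 genes r was -0.0053. With siSRSF1-2, r over the factors was 0.086. The 12 shortest factors, at 3716 bases or less, had medians of 0.82, 0.60 and 0.13 log2 units above the blank mean in siSRSF1-3 replicates 1, 2 and 3, and the 12 longest, at 5398 bases or more, had 0.088, -0.15 and -0.024. Of all genes tested, those of up to 1480 bases had 0.15, 0.068 and 0.067 and those of 6413.5 bases or more -0.37, -0.31 and -0.0012 in the same libraries. NOP10, at 554 bases, was the shortest factor and had the highest fold change. PES1 had 4557 bases, and the median length of the factors was 4227 bases. With a loess trend on gene length removed, a setting chosen after the data were seen, the log2 fold change of NOP10 was 1.30 (SE 0.45, adjusted p = 0.127 by limma) and the median of the factors 0.12. Between the siRNAs, compared below, this setting shrank FBL to 0.90, GAR1 to 0.80, RRP9 to 0.61, BYSL to 0.52, UTP20 to -0.65 and POLR1A to -0.20. It changed NOP10 (1.27), PES1 (0.94) and DDX21 (-0.68) little and raised NCL to 1.23. Why length and fold change went together was not tested.

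**Figure D4:**
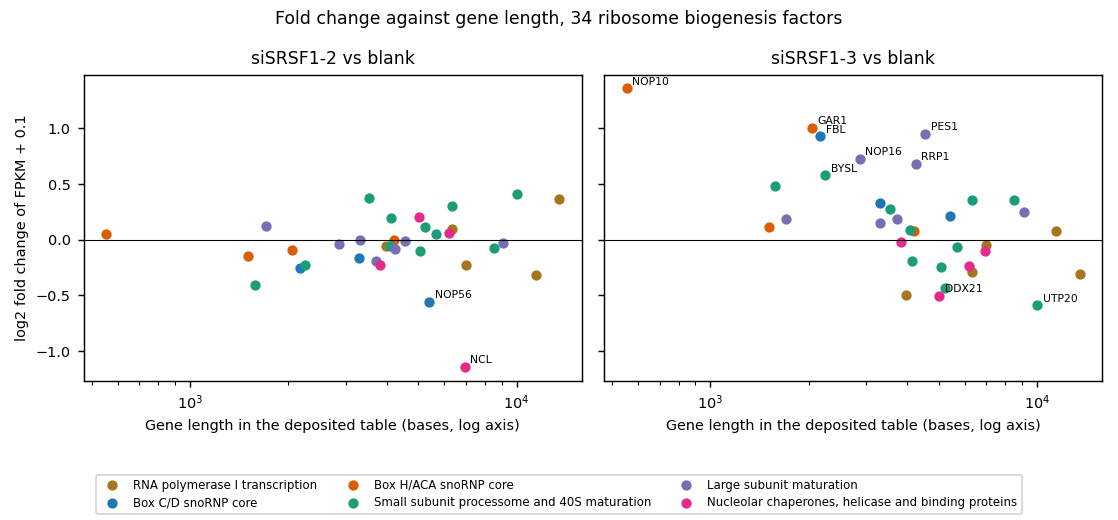
Log2 fold change of FPKM + 0.1 against blank cells (vertical axis) and gene length in bases (horizontal log axis) for the 34 tested factors, coloured by role, with siSRSF1-2 on the left and siSRSF1-3 on the right. With siSRSF1-3 the points slope down from NOP10 at 554 bases to UTP20 and POLR1A, and with siSRSF1-2 they stay level apart from NCL and NOP56.

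Setting the siRNAs against each other leaves the blank libraries out. SRSF1 itself differed between them by a log2 fold change of -0.37 (SE 0.32, adjusted p = 0.387 by limma). NCL was the clearest difference, at 105, 105 and 101 FPKM with siSRSF1-3 against 49.1, 50.9 and 50.4 with siSRSF1-2. The log2 fold change of 1.04 (SE 0.11) just missed the threshold (adjusted p = 0.0515 by limma). It passed with a pseudocount of 1, with no filter, with a mean FPKM of at least 1, with voom, in the fit over all groups, with the gene-length trend removed and without siSRSF1-3 replicate 3 (adjusted p from 0.00135 to 0.0486). Scaling to own read totals gave 0.74 (adjusted p = 0.0952) and the same sum of FPKM 0.47 (adjusted p = 0.200), both by limma.

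BYSL followed at a log2 fold change of 0.81 (SE 0.16, adjusted p = 0.0725 by limma), with all 3 siSRSF1-3 libraries above all siSRSF1-2 ones. GAR1 differed by 1.10 (SE 0.28, adjusted p = 0.0800), FBL by 1.19 (SE 0.41, adjusted p = 0.0949), NOP10 by 1.31 (SE 0.46, adjusted p = 0.0970), PES1 by 0.96 (SE 0.32, adjusted p = 0.0913) and RRP9 by 0.89 (SE 0.24, adjusted p = 0.0808), each higher with siSRSF1-3 in all libraries. In the other direction UTP20 differed by -1.004 (SE 0.32, adjusted p = 0.0873) and POLR1A by -0.68 (SE 0.22, adjusted p = 0.0886), all by limma. These sizes depended on the scaling. At the same sum of FPKM, BYSL was at 0.23, GAR1 at 0.52, FBL at 0.61, NOP10 at 0.73, PES1 at 0.38 and RRP9 at 0.31. UTP20 and POLR1A moved to -1.55 and -1.25 on that scale. No factor passed the threshold, which 0.0342% of all genes passed as higher and 0.0513% as lower, while an unadjusted p under 0.05 held for 12 higher and 3 lower factors (35.3% and 8.82%), where it held for 21.9% and 20.2% of all genes. With the fold limit the counts were 4 and 1 (11.8% and 2.94%), against 9.01% and 7.42%, and in 1 fit over all 4 groups the threshold was also passed by 4 and 1, against 8.39% and 7.18%. Without overlap, 16 factors were higher and 6 lower (47.1% and 17.6%), where 27% and 27.6% of all genes tested were. The median was 0.20 (all genes -0.021), with 23 of 34 higher, and relative to all genes it was 0.22 as deposited, 0.21 on own read totals and 0.20 at the same sum of FPKM. Without siSRSF1-3 replicate 3, 11 factors passed, 9 higher and 2 lower, the lower ones being UTP20 (-1.34) and DDX21 (-1.16). These were 26.5% and 5.88% of the factors, where 16% and 14.5% of all genes tested passed as higher and lower in that fit.

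With OE-LINC01134 no factor passed the threshold in limma or with voom (all genes tested, 0.257% higher and 0.593% lower). GAR1, the only factor at an unadjusted p under 0.05 (14% of all genes were higher and 12.3% lower at that p), read 46.6, 36.6 and 44.6 FPKM against 37.8, 25.5 and 25.4 in blank cells, overlapping through blank replicate 1 (log2 fold change 0.54, SE 0.19, adjusted p = 0.140 by limma). NOP56 and RRP9, both lower with siSRSF1-2, were the only factors lower than every blank library, with NOP56 at 28.3, 30.6 and 29.2 FPKM (log2 fold change -0.33, SE 0.16, adjusted p = 0.240 by limma) and RRP9 at 39.9, 38.6 and 39.7 FPKM (log2 fold change -0.14, SE 0.11, adjusted p = 0.455 by limma). These comparisons share the blank libraries. Such genes were 13.8% of all tested, and none of the factors was higher without overlap, where 16.8% of all genes were. DDX21 split the group, at 113 and 115 FPKM in replicates 1 and 3 and 66.8 in replicate 2, which lay on the blank values (log2 fold change 0.45, SE 0.22, adjusted p = 0.244 by limma). The median of the factors was 0.033 (all genes 0.053). Without blank replicate 1 and OE-LINC01134 replicate 2, a setting chosen after the data were seen, it was 0.24 (all genes 0.077), 21 factors were higher and 2 lower at an adjusted p under 0.05 (61.8% and 5.88%), where 33.9% and 25.8% of all genes tested were, and no factor passed the fold limit. The libraries left in each group were near-identical (chi-square 2.81 and 2.14 per gene), so these limma p-values measure that small spread only. Most factors were highest in blank replicate 1 among the blank libraries, and leaving out that library alone gave a median of 0.19.

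The other genes of the pathway gave a wider view. Of 88 further ribosome biogenesis genes, 87 were tested, and 0 passed the threshold in any of the 4 comparisons by limma. With siSRSF1-3, 7.57% of all genes tested were higher past the fold limit at an unadjusted p under 0.05, and 4 of these 87 were. With siSRSF1-3 their median was 0.20 as deposited, with 57 higher and 30 lower, but -0.055 on own read totals (40 higher) and -0.24 at the same sum of FPKM (28 higher), and relative to all genes 0.21, 0.21 and 0.20. The smallest adjusted p was 0.0525 for DDX10, an RNA helicase (log2 fold change 1.18). With siSRSF1-2 the median was -0.015, with 41 higher and 46 lower, and it was 0.029 and 0.12 on the other scales. At an adjusted p under 0.05 with no fold limit 8 rose and 3 fell (9.2% and 3.45%), where 14% and 12.8% of all genes did. The 3 that fell, named after their values were seen, were RUVBL1 (-0.45, adjusted p = 0.0312) and NUFIP1 (-0.43, adjusted p = 0.0356), which help to assemble box C/D snoRNPs, and the large subunit factor BRIX1 (-0.39, adjusted p = 0.0477). Among those that rose were MDN1, a giant ATPase of the pre-60S particle (0.75, adjusted p = 0.0158), and TAF1A, a subunit of the polymerase I selectivity factor (0.71, adjusted p = 0.00613), all log2 fold changes by limma. None of these 5 kept an adjusted p under 0.05 in 1 fit over all 4 groups (0.137 to 0.251). With OE-LINC01134 the median was 0.13, with 66 higher and 21 lower, where all genes had a median of 0.053 and 45.1% of them were lower. Relative to all genes it was 0.081, and 54 of the 87 lay above the median of all genes. In OE-LINC01134 replicate 2 alone the median was -0.010 from the blank mean, with 39 above it and 48 below.

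**Figure D5:**
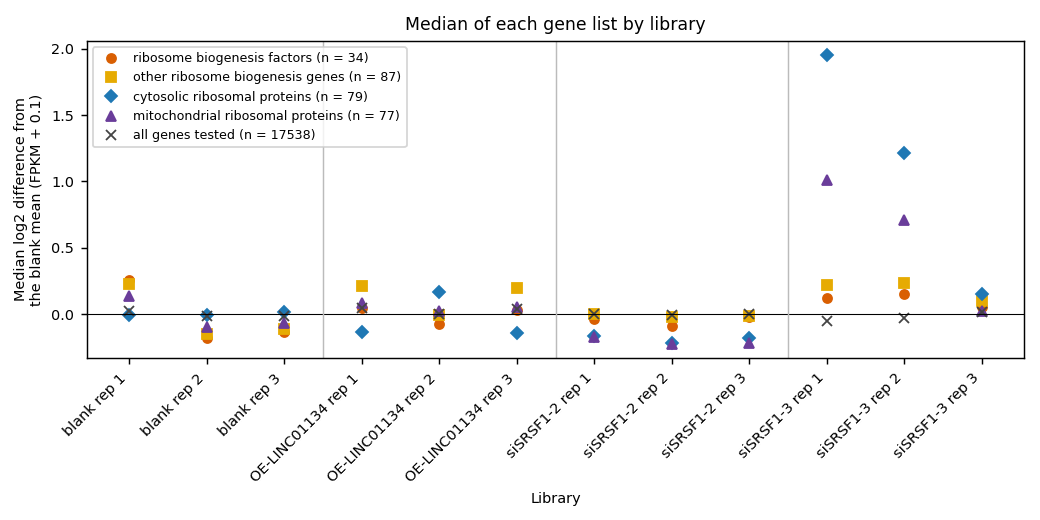
Median log2 difference of FPKM + 0.1 from the blank mean (vertical axis) in each of the 12 libraries for the 34 tested factors, 87 other ribosome biogenesis genes, 79 cytosolic and 77 mitochondrial ribosomal protein genes and all genes tested. In siSRSF1-3 replicates 1 and 2 the cytosolic ribosomal proteins reach 1.95 and 1.21 while the factors stay at 0.12 and 0.15.

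The medians of the ribosomal protein genes parted from that of the factors with siSRSF1-3, but single factors went both ways. Over the 12 libraries, r with the cytosolic ribosomal median was 0.98 for FBL, 0.97 for NOP10 and 0.95 for PES1. It was -0.90 for DDX21, -0.87 for UTP20 and -0.87 for NAT10, and for the median of the factors it was 0.41. These r values pool the 4 groups and lean on siSRSF1-3 replicates 1 and 2. Only there was the cytosolic ribosomal median far from the blank mean (1.95 and 1.21), and in the other libraries it ran from -0.21 to 0.17. With siSRSF1-3 the 79 cytosolic ribosomal protein genes had a median log2 fold change of 1.10 and the 77 mitochondrial ones tested 0.59, against 0.13 for the factors. On own read totals these medians were 0.84, 0.32 and -0.13, at the same sum of FPKM 0.66, 0.13 and -0.31, and relative to all genes as deposited 1.12, 0.60 and 0.14. By library, the cytosolic ribosomal proteins were 1.95, 1.21 and 0.15 log2 units above the blank mean, and the factors 0.12, 0.15 and 0.051. With siSRSF1-2 the medians were -0.19, -0.18 and -0.045, and with OE-LINC01134 -0.018, 0.077 and 0.033. At the same sum of FPKM they were -0.055, -0.046 and 0.086 with siSRSF1-2 and 0.072, 0.16 and 0.12 with OE-LINC01134. None of the ribosomal protein genes of the cytosolic list passed the threshold with siSRSF1-3 by limma, where 25 of the 79 were higher past the fold limit at an unadjusted p under 0.05, a rule that 7.57% of all genes met. As a share of all reads on genes, the 35 factors took 0.526%, 0.572% and 0.597% with siSRSF1-3, 0.532%, 0.532% and 0.531% with siSRSF1-2, 0.613%, 0.576% and 0.609% with OE-LINC01134 and 0.695%, 0.537% and 0.548% in blank cells, where replicate 1 was the highest of all 12 libraries.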

How the data were processed

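RNA of U2OS cells was sequenced in 12 libraries. The authors deposited FPKM per gene with gene length, coordinates and full name, but no symbols. Their methods give poly-T selection, paired-end reads and DESeq2, the labels a SMARTER kit and the mouse builds GRCm38 and mm10, and the aligner, the counter and the human build of the coordinates are not given in the sources used here. All 35 factors were matched by full name. FPKM times length gave whole reads (within 0.01 of a read) for 100% of the values, and the library sizes implied by the FPKM were 0.712 to 1.085 times the own read totals. Since the deposited FPKM are not counts, log2(FPKM + 0.1) was fitted with limma 3.58.1 (eBayes with trend) in R 4.3.3, 3 libraries against 3, on the 17538 genes whose mean reached 0.5 FPKM. On simulated data with a log2 fold of 1.5, the fit called 162 of 200 changed genes and 2 unchanged ones. The noise was drawn for each gene on its own from a widened spread of the siSRSF1-2 libraries, the group with the smallest spread. No library stood apart in it, so these figures do not carry over to the comparisons above.

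The factors, role groups and lists were chosen with earlier results of these data known. Per-library values are given for SRSF1, the factor with the smallest p of each role group with either siRNA, the 3 most abundant factors and any past the threshold, with others added after their values were seen. Alternatives were pseudocounts of 1 and 0.01, dropping the filter or raising it to 1 FPKM, other scalings, no trend, voom on the recovered reads, 1 fit over all groups, other call rules, a replicate block and each library left out. Chosen after the data were seen were a gene-length trend (loess span 0.5), averaging libraries that differed by a chi-square under 5 per gene, and leaving out a pair of libraries.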

Additional observations from a re-analysis of the deposited data

How the results depend on the processing

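The counts of factors past the threshold were within 1.5 times the reported count in 71 of 85 alternative settings, and the median log2 fold changes kept within the spread of the siRNA or overexpression libraries in 52 of 73. With siSRSF1-3 against blank cells, 2 factors passed in 1 fit over all 4 groups (2422 of all genes) and 2 at an unadjusted p, and 0 to 5 with a library left out (5 without siSRSF1-3 replicate 3, with 4184 of all genes). The median of 0.13 became -0.13 on own read totals, -0.31 at the same sum of FPKM and 0.056 with near-identical libraries averaged, and ran from 0.038 to 0.27 with a library left out. With siSRSF1-2, 3 factors passed without a fold limit, 0 with near-identical libraries averaged, and 0 to 1 with a library left out (0 without blank replicate 1). The median of -0.045 became -0.00062 on own read totals, 0.086 at the same sum, 0.030 with the length trend removed and -0.11 with near-identical libraries averaged, and ran from -0.12 to 0.091 with a library left out (0.091 without blank replicate 1). With OE-LINC01134 the count stayed at 0 in all settings run. The median of 0.033 became 0.12 at the same sum, 0.13 with the length trend removed and 0.24 without blank replicate 1 and OE-LINC01134 replicate 2, and ran from -0.037 (without blank replicate 2) to 0.19. Between the siRNAs, 1 factor passed with a pseudocount of 1, with no filter, with a filter of 1 FPKM, with voom and with the length trend removed, 5 in 1 fit over all 4 groups (2731 of all genes), 5 at an unadjusted p, and 0 to 11 with a library left out (11 without siSRSF1-3 replicate 3, with 5358 of all 17538 genes). The median of 0.20 became -0.11 on own read totals and -0.38 at the same sum, and ran from 0.16 to 0.25 with a library left out. For scalings the shift is that of all genes, and otherwise the cause was not tested.

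Of single genes, some turned direction under other settings. With siSRSF1-3 against blank cells, NCL became 0.078 with the length trend removed and ran from -0.22 to 0.12 with a library left out (0.12 without blank replicate 1), and POLR1A became 0.016 with the length trend removed. On own read totals and at the same sum, DKC1 became -0.18 and -0.36, BOP1 -0.071 and -0.26, and WDR12 -0.011 and -0.19, and DKC1 ran from -0.0060 (without blank replicate 2) to 0.22. RRP1 with siSRSF1-2 became 0.051 at the same sum and 0.0011 with the length trend removed, and SRSF1 between the siRNAs ran from -0.61 to 0.0031 with a library left out (0.0031 without siSRSF1-3 replicate 1). NCL and SRSF1 with siSRSF1-2 lost the threshold with near-identical libraries averaged (-1.25 and -1.86), and NCL also without blank replicate 1 (-0.92).

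With a replicate block, 0 factors passed with siSRSF1-3, 1 with siSRSF1-2 (NCL), 0 with OE-LINC01134 and 0 between the siRNAs, and the medians stayed at 0.13, -0.045, 0.033 and 0.20. NOP56 then missed an adjusted p of 0.05 (0.0607 by limma). Libraries with the same number did not deviate together (correlations from -0.081 to 0.042 over the 4 comparisons), and in 3 of them no library correlated best with its own number, so the numbers were not taken as pairs.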
